A study of Mus musculus with 6 samples.

Results

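The proteasome subunit genes were taken as every gene of the deposited RNA-seq table whose symbol begins with *Psm*, followed by a letter from a to g and a number. This rule found 50 of the 20280 genes listed, and it used the symbols alone and no measured value. RNA-seq libraries came from whole mouse embryos of the inbred FVB/N strain at embryonic day 8.5, with 3 libraries labelled wildtype (*Tip55*+/+) and 3 labelled *Tip55* knockout (*Tip55*Δ/Δ). *Tip55* is a splice isoform of *Kat5*, which encodes a histone acetyltransferase. The mutant allele is constitutive. It joins neighbouring *Kat5* exons without the introns between them, which takes away the intronic sequence that only *Tip55* keeps and leaves the other isoforms. Embryos of both genotypes came from crosses between heterozygotes, and mutants had no overt phenotype at this stage. In stained sections of the same stage, however, the paper reports fewer proliferating cells in mutant heart and more apoptotic cells in mutant neural tube. Whether a library was 1 embryo or a pool is not given in the sources used here. The comparison asks how the RNA levels of these genes differed between *Tip55*+/+ and *Tip55*Δ/Δ embryos.

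The proteasome is the large protease that degrades proteins marked with ubiquitin. Its 20S core is a barrel of stacked rings, in which alpha subunits form the outer rings and gate the entry, and beta subunits, some of them catalytic, form the inner rings. The 19S particle caps this barrel to give the 26S proteasome. Its base holds a ring of ATPases that unfold the substrate, and its lid removes ubiquitin. Alternative catalytic subunits replace the constitutive ones in immune cells and after interferon, other activators can sit in place of the cap, and dedicated chaperones assemble the core and the base.

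The transcription factors encoded by *Nfe2l1* and *Nfe2l2* are known to act on proteasome genes through antioxidant response elements. Promoters from RefSeq (GRCm38.p6, 250 bases before to 50 bases after each start) were present for 42 of the 50 genes and were searched for the core of that element, TGACNNNGC, on both strands. It was found in 6 of the 42 genes (14.3%), against 14.0% of the 27025 genes with a promoter and 16.9% of the 9375 of these that were tested here. These letters were thus about as frequent in proteasome promoters as elsewhere. The genes were *Psmb5*, *Psmb6*, *Psmc6*, *Psmd9*, *Psmd12* and *Psme4*. The windows of the 4 genes of the 26S particle and of the base chaperone gene *Psmd9* are shown because their regulators are measured in the same table. Each is 30 bases in the direction of the gene, with the motif, or its reverse complement, in capitals.
*Psmb5* (chr14:54618023-54618052, minus strand): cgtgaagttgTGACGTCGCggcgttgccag
*Psmb6* (chr11:70525338-70525367, plus strand): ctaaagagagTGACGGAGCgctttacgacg
*Psmc6* (chr14:45329587-45329616, plus strand): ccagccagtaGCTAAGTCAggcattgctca
*Psmd12* (chr11:107479278-107479307, plus strand): tctGCTGTGTCAcatttgcccccctcagac
*Psmd9* (chr5:123228149-123228178, plus strand): atctagccggTGACCCCGCccacttccaag
In *Psmb5*, 38 bases lay between the motif and the start, in *Psmd9* 22, in *Psmc6* 218 and in *Psmd12* 238, and in *Psmb6* the motif ended at the start. The windows of *Psmc6* and *Psmd12* hold the motif on the opposite strand. A match is a description of the letters and not of a bound site.

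For each gene the deposited table gives ratios between the genotypes, with nothing on a single library. A mean normalized count per genotype was recovered for each gene from its pair of deposited ratios, and the quantity given here is the ratio of these means, *Tip55*Δ/Δ (mutant) over *Tip55*+/+ (wild type). The intervals are 95% Clopper-Pearson limits (exact binomial) on 3 times each recovered mean, taken as the count of the 3 libraries of that genotype together. Normalized estimates thus stand in for raw counts, which were not available. The intervals describe counting error alone, because reads without molecular identifiers are not independent molecules and the spread between embryos was not measurable. No test across embryos was possible. A gene was counted as higher or lower in mutant embryos when its mean was at least 25% above that of wild-type embryos or at least 20% below it (a ratio of at most 0.8), and its mean over both genotypes was at least 100 normalized counts. All recovered means together came to 49138051 normalized counts in a wild-type and 47211544 in a mutant library.

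*Kat5* had a mean of 2218 normalized counts in wild-type and 1615 in mutant embryos, a ratio of 0.728 (interval 0.702 to 0.756). With the trend on transcript GC content removed, its log2 ratio went from −0.46 to −0.35. This value sums all isoforms. The paper states that the allele leaves expression of the other isoforms unaltered, and that *Tip55* was less expressed than the others measured. The *Kat5* value is thus no check of the labels. Neural, heart and somite markers were present in both genotypes at differing ratios. *Sox2*, *Sox1* and *Pax6* had ratios of 1.02, 0.913 and 1.35, the heart genes *Tnnt2*, *Myl7* and *Nkx2-5* had 1.57, 1.21 and 0.695, and the somite genes *Meox1* and *Tcf15* had 0.765 and 0.733. With the GC trend removed, *Nkx2-5*, *Meox1* and *Tcf15* were no longer past the threshold and *Myl7* was. All 6 erythroid markers were lower in mutant embryos, with ratios from 0.0571 to 0.0992 and summed means of 105233 and 7395 normalized counts. All 4 yolk sac endoderm markers were lower, with ratios from 0.435 to 0.693 and summed means of 117920 and 70042. Of the 4 trophoblast and decidua markers, 2 were tested. *Prl8a2* had 503 and 27.6 normalized counts, and *Dcn* had a ratio of 1.09 (interval 0.969 to 1.22). The others had too few counts to be tested and were also lower in mutant embryos. *Prl2c2* had 30.5 and 5.50 (ratio interval 0.103 to 0.312), and *Prl3b1* had 7.53 and 2.11 (interval 0.0869 to 0.659). Of the 3 leukocyte markers, *Ptprc* was near 0, with 0.926 and 1.11, and *Laptm5* and *Coro1a* had ratios of 1.09 and 0.857. Markers of several cell types, most of all *Prl8a2* and those of red blood cells, thus moved with genotype, and their part in the proteasome values was not tested. In whole embryos, fewer cells of a type and less RNA per cell cannot be told apart.

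Most proteasome genes had nearly the same level in both genotypes. Of the 50 genes, 45 passed the filter on the mean, and their ratios ran from 0.631 to 1.26. *Psmb2* was the 1 gene past the threshold that was higher in mutant embryos, and *Psmb10* was the 1 gene that was lower. Over all 12381 genes tested, 9.22% were higher and 13.1% were lower past the same threshold. With the trend of the ratios on transcript GC content removed, these background shares were 9.82% and 8.67%, and *Psmb2* and *Psmb10* were again the proteasome genes past the threshold. The median log2 ratio of the 45 genes was 0.017, against −0.022 over all genes tested. Their SD on the log2 scale was 0.16, against 0.35 over all genes tested. Within 1.1-fold of equality in either direction lay 33 of the 45 genes (73.3%), and 43.0% of all genes tested did so.

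Because the proteasome genes have many counts, a second background was formed from the 1812 genes with means between the lowest and the highest of the 31 constitutive 26S genes found by the rule. Of these, 1.93% were higher and 10.3% were lower, 54.4% lay within 1.1-fold, and the SD of their log2 ratios was 0.26. For these 31 genes themselves, 1 was higher and 0 were lower, 23 (74.2%) lay within 1.1-fold, and the SD was 0.14.

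**Figure D1:**
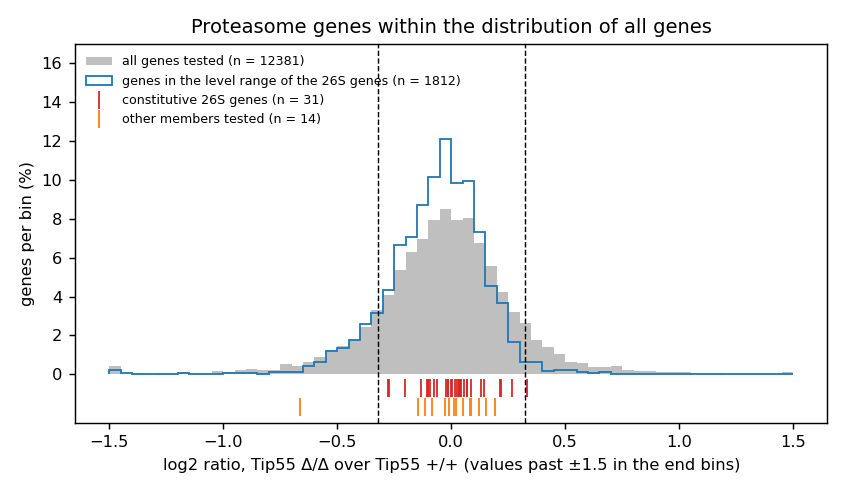
Distribution of the log2 ratio, *Tip55*Δ/Δ over *Tip55*+/+ (x axis), as the percent of genes per bin (y axis) for all 12381 genes tested (grey) and for the 1812 genes in the level range of the 26S genes (blue line). Ticks below 0 mark the 31 constitutive 26S genes (red) and the other proteasome genes tested (orange), and dashed lines mark the threshold. The red ticks gather around 0 with *Psmb2* at the right-hand line, and *Psmb10* is the orange tick at −0.66.

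The counting interval of the ratio left out 1 for 36 of the 45 genes tested (80.0%), against 79.4% of all genes tested and 88.1% of those in the level range of the 26S genes. Whether these differences exceed the spread between embryos was not measurable. Summed over the 31 constitutive 26S genes found by the rule, the means were 269874 normalized counts in wild-type and 272651 in mutant embryos, a ratio of 1.01. The sum leaves out the 26S genes *Adrm1* and *Sem1*, whose symbols do not meet the rule. The share of the 31 genes in all recovered counts was 0.549% in wild-type and 0.578% in mutant embryos. The ratio of sums was 1.03 for the 14 constitutive core genes and 0.994 for the 17 genes of the 19S particle found by the rule.

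**Figure D2:**
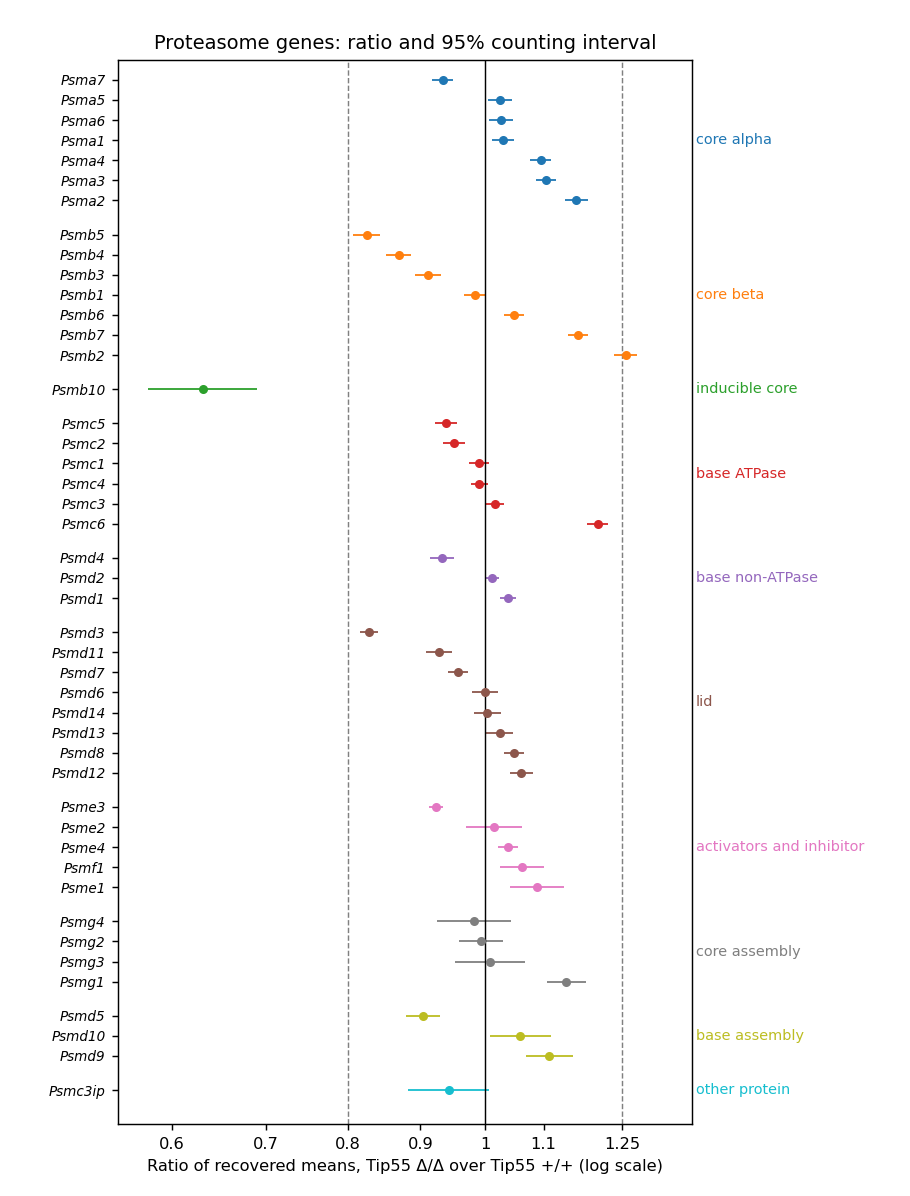
Ratio of the recovered means, *Tip55*Δ/Δ over *Tip55*+/+, for the 45 proteasome genes tested (x axis, log scale), grouped by the part of the particle they encode, with bars for the 95% counting interval. The solid line is equality and the dashed lines are the threshold. *Psmb2* at 1.26 and *Psmb10* at 0.631 lie past the threshold and all others lie inside it.

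Among the 7 genes for the alpha ring of the core, none passed the threshold, 6 had ratios above 1 and 5 lay within 1.1-fold of equality. Their median log2 ratio was 0.041, and it was 0.039 with the GC trend removed. The lowest was *Psma7*, on chromosome 2 of GRCm38 from 180036374 to 180042433, which had 9147 normalized counts in wild-type and 8534 in mutant embryos (ratio 0.933, interval 0.917 to 0.949). The highest was *Psma2*, on chromosome 13 from 14613240 to 14674236, with 6832 and 7928 (ratio 1.16, interval 1.14 to 1.18). These intervals lie apart, so the spread among the alpha genes was wider than counting error. The *Psma7* transcript has a GC content of 57.4%, the highest of the 7, and that of *Psma2* 39.4%, the lowest. With the trend over all genes removed, *Psma7* changed sign to 0.066 on the log2 scale, *Psma2* was at 0.083, *Psma1* changed sign to −0.018, and the SD of the 7 log2 ratios went from 0.10 to 0.038. The part of base composition in this spread was not tested. The other members, *Psma5*, *Psma6*, *Psma1*, *Psma4* and *Psma3*, had ratios of 1.02, 1.03, 1.03, 1.09 and 1.104. Processed copies and neighbours limit some of these values, since *Psma5*, *Psma4* and *Psma3* share 54.5%, 25.6% and 22.0% of their 50-base words with other genes, and *Psma2* overlaps *AW209491* on the same strand.

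The 7 genes of the constitutive beta ring were spread more widely than the other 26S classes found by the rule, but less than genes in general. Their SD on the log2 scale was 0.22, against 0.35 over all genes tested and 0.26 in the level range of the 26S genes. With the GC trend removed it was 0.187, when the 3 base chaperones had 0.188. The median log2 ratio was −0.025, with 3 ratios above 1 and 4 below. Within 1.1-fold lay 3 genes (42.9%), against 43.0% of all genes tested. *Psmb2*, a beta subunit without catalytic activity, lies on chromosome 4 from 126677630 to 126709714. It had a mean of 6378 normalized counts in wild-type and 8021 in mutant embryos, a ratio of 1.26 (interval 1.23 to 1.28) and a log2 ratio of 0.33. This is just past the threshold, which the lower bound of the interval does not reach. Its transcript has a GC content of 51.0%, so the trend removal left it at 0.37, and it shares no 50-base word with another gene and overlaps none in the annotation.

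The catalytic beta subunits did not move together. *Psmb5*, which carries the chymotrypsin-like activity, had 5774 and 4761 normalized counts (ratio 0.825, interval 0.806 to 0.843) and was the lowest of the 31 constitutive 26S genes found by the rule. *Psmb6*, with the caspase-like activity, had 9490 and 9949 (ratio 1.05, interval 1.03 to 1.07). *Psmb7*, with the trypsin-like activity, had 8741 and 10168 (ratio 1.16, interval 1.14 to 1.18). The 3 intervals do not overlap, so the differences between these ratios were wider than counting error. Removing the GC trend brought *Psmb5*, with a GC content of 56.6%, from −0.28 to −0.13 on the log2 scale. It brought *Psmb7*, with 40.8%, from 0.22 to 0.110 and *Psmb6* from 0.068 to 0.121. *Psmb6* and *Psmb7* then lay within counting error of each other. The lowest of the 31 genes was then *Psmd11*, at −0.23. *Psmb5* shares 57.1% of its 50-base words with other genes, mostly with *Gm3375*, and *Psmb7* overlaps *Nek6*. The noncatalytic *Psmb4*, *Psmb3* and *Psmb1* had ratios of 0.869, 0.911 and 0.983.

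**Figure D3:**
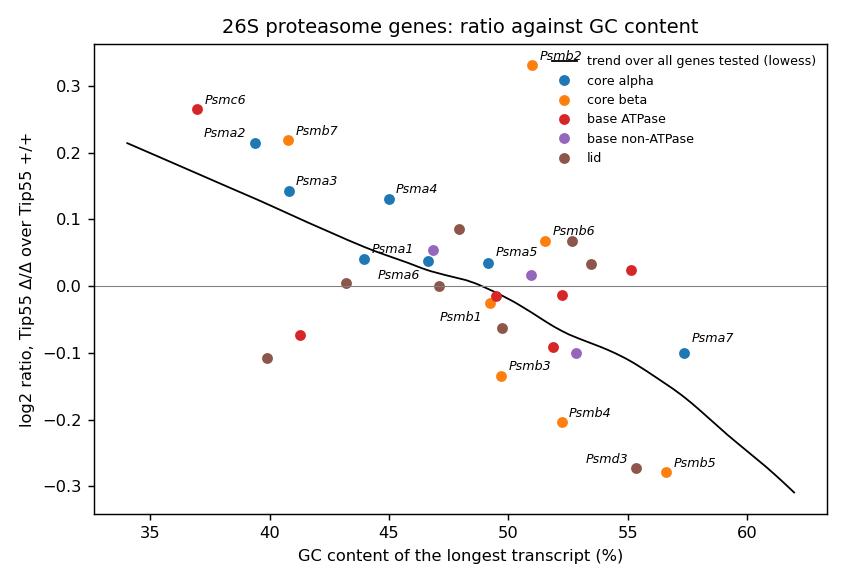
Log2 ratio, *Tip55*Δ/Δ over *Tip55*+/+ (y axis), against the GC content of the longest transcript in percent (x axis) for the 31 constitutive 26S genes, coloured by class, with the trend over all genes tested as a line. The alpha genes run from *Psma2* at 39.4% to *Psma7* at 57.4%, and *Psmb2* stands above it by 0.37.

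Of the 5 genes for inducible or tissue-specific core subunits, *Psmb10* alone had enough counts to be tested. *Psmb10*, which replaces *Psmb7* in the immunoproteasome, lies on chromosome 8 from 105935735 to 105938444. It had a mean of 429 normalized counts in wild-type and 271 in mutant embryos, a ratio of 0.631 (interval 0.577 to 0.689) and a log2 ratio of −0.66. Its transcript has a GC content of 56.5%, and the log2 ratio was −0.52 with the trend removed. It overlaps the antisense gene *Gm16156*, and per the labels these libraries are not strand specific.

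The other 2 immunoproteasome subunits were close to the limit of detection. *Psmb8*, which replaces *Psmb5*, had 4.51 and 5.67 normalized counts (ratio 1.26, interval 0.563 to 2.66), which this depth could not tell apart. *Psmb9*, which replaces *Psmb6*, had 2.21 and 8.49 (ratio 3.85, interval 1.502 to 9.78), and it overlaps *Tap1* on the opposite strand, which had 27.7 and 54.5. *Psmb11* of the thymus and *Psma8* of the testis had 29.97 and 38.8, and 16.4 and 21.5 normalized counts, with intervals that hold 1. The filter on the mean falls in a gap of the family, between *Psmb11* at 34.4 normalized counts over both genotypes and *Psmb10* at 350.

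Measured per kilobase of the longest transcript, *Psmb10* stood at 10.7% of the level of *Psmb7* in wild-type and at 5.79% in mutant embryos. *Psmb8* stood at 0.0368% and 0.0561% of the level of *Psmb5*, and *Psmb9* at 0.00779% and 0.0286% of that of *Psmb6*. These shares depend on the length taken. With the median length of the coding transcripts they were 4.34% and 2.36% for *Psmb10*, 0.0706% and 0.108% for *Psmb8*, and 0.0351% and 0.129% for *Psmb9*. With either length and in both genotypes the constitutive catalytic subunit was the abundant one of each pair.

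Interferon and antigen presentation genes were read beside them. Of 16 genes listed, 8 were tested, 1 was higher and 0 were lower past the threshold (9.22% and 13.1% of all genes tested), and their median log2 ratio was 0.19. The gene past it was *Irf1*, an interferon-regulated transcription factor, with 191 and 277 normalized counts (ratio 1.45, interval 1.30 to 1.61). *H2-D1* and *H2-K1*, which encode class I molecules, lay just inside it, with 952 and 1185 normalized counts for *H2-D1* and a ratio of 1.22 for *H2-K1*. With the GC trend removed both were past it, at 0.45 and 0.39 on the log2 scale, so that 3 of the 8 were higher and 0 lower. *Psmb10* had the opposite direction from these.

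The 6 ATPase genes of the base had a median log2 ratio of −0.014, which turned to 0.0082 when centred on all genes and to 0.025 with the GC trend removed. None passed the threshold and 5 lay within 1.1-fold. The lowest was *Psmc5*, with 8273 and 7766 normalized counts (ratio 0.939, interval 0.922 to 0.956). *Psmc2*, *Psmc1*, *Psmc4* and *Psmc3* had ratios of 0.950, 0.990, 0.991 and 1.02. The highest was *Psmc6*, on chromosome 14 from 45329788 to 45349705, with 7762 and 9325 normalized counts (ratio 1.201, interval 1.18 to 1.22). *Psmc6* has the lowest GC content of the 31 constitutive genes, 37.0%, and its log2 ratio of 0.26 was 0.096 with the trend removed. *Psmc3* was then the highest ATPase gene, at 0.136, *Psmc2* the lowest, at −0.174 and outside 1.1-fold, and *Psmc5* was at −0.031.

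The 3 other genes of the base found by the rule all lay within 1.1-fold. *Psmd4*, a receptor for ubiquitin chains, had 7134 and 6653 normalized counts (ratio 0.933, interval 0.915 to 0.951). Scaffold genes *Psmd2* and *Psmd1* had ratios of 1.01 and 1.04, the latter with means of 15251 and 15832 (interval 1.03 to 1.05). Among these, *Psmd2* shares 26.1% of its 50-base words with other genes.

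In the lid, 7 of the 8 genes found by the rule lay within 1.1-fold. Their median log2 ratio was 0.0024, or −0.035 with the GC trend removed. The lid gene *Sem1* does not meet the rule and is described below. *Psmd3*, on chromosome 11 from 98682554 to 98695979, was the exception. It had 12134 normalized counts in wild-type and 10043 in mutant embryos (ratio 0.828, interval 0.815 to 0.840), inside the threshold. Its transcript has a GC content of 55.4%, and its log2 ratio of −0.27 was −0.16 with the trend removed. *Psmd11* was then the lowest of the lid, at −0.231, and both *Psmd11* and *Psmd8*, at 0.142, also lay outside 1.1-fold. *Psmd14*, the subunit that cleaves ubiquitin from the substrate, had 5115 and 5134 normalized counts (ratio 1.004), and *Psmd7*, its inactive partner, had a ratio of 0.957. *Psmd12* was the highest of the 8, with 7344 and 7792 (ratio 1.06, interval 1.04 to 1.08). *Psmd11*, *Psmd6*, *Psmd13* and *Psmd8* had ratios of 0.928, 0.9996, 1.02 and 1.05, and the means of *Psmd6* carry a recovery error of up to 3.13%.

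Levels differed far more between the 31 genes than between genotypes. Per kilobase of the longest transcript, wild-type means ran from 2135 for *Psmd11* to 9824 normalized counts for *Psmb6*, a 4.60-fold range around a median of 5093. In mutant embryos the same genes were lowest and highest, at 1981 and 10300, a 5.20-fold range. The range depends on the length taken. With the median length of the coding transcripts it was 9.70-fold in wild-type embryos, from *Psma2* to *Psmd2*, so the order of the genes depends on it too.

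**Figure D4:**
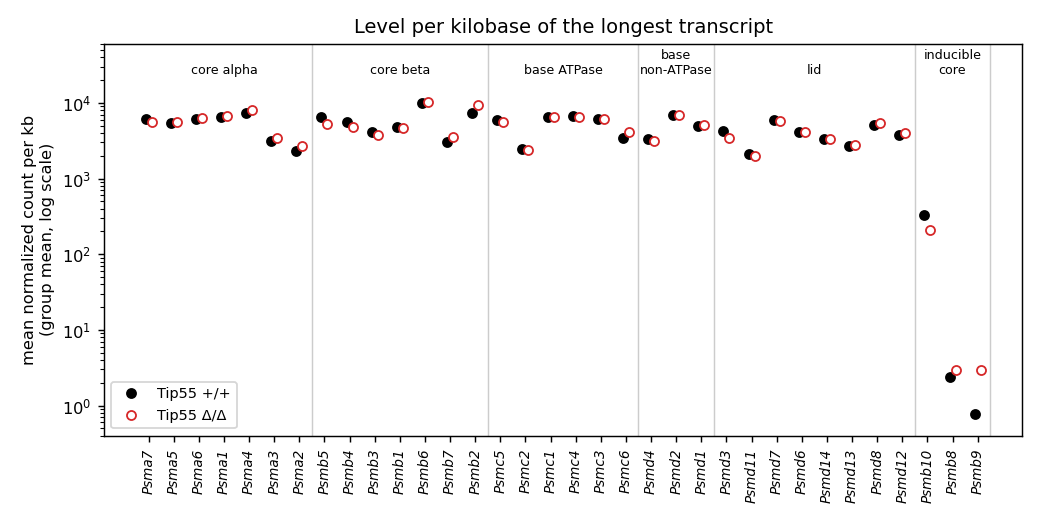
Mean normalized count per kilobase of the longest transcript (y axis, log scale) for the 31 constitutive 26S genes and the 3 immunoproteasome genes (x axis), in *Tip55*+/+ (filled) and *Tip55*Δ/Δ embryos (open). The constitutive genes lie in 1 band between 1981 and 10300 in both genotypes, with *Psmb10* below 350 and *Psmb8* and *Psmb9* near the bottom of the axis.

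The activators and the inhibitor were close to equality as well, with a median log2 ratio of 0.053 and all 5 tested genes within 1.1-fold. *Psme3*, which encodes the nuclear activator, had 20413 and 18834 normalized counts (ratio 0.923, interval 0.912 to 0.933). *Psme1*, for the interferon-inducible activator, had 1303 and 1417 (ratio 1.09, interval 1.04 to 1.14), and its partner *Psme2* had a ratio of 1.01. With the GC trend removed, the log2 ratio of *Psme1* went from 0.12 to 0.26, outside 1.1-fold. *Psme4*, for the large single-chain activator, had a ratio of 1.04 that changed sign to −0.0065 on the log2 scale with the GC trend removed. The inhibitor gene *Psmf1* had one of 1.06. *Psme2b*, an intronless copy of *Psme2* that shares 69.3% of its 50-base words, was not tested, with 21.8 and 28.1 normalized counts (interval 0.924 to 1.81).

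The chaperones of the core are encoded by *Psmg1* to *Psmg4* and had a median log2 ratio of 0.0012. *Psmg1* was highest, with 2449 normalized counts in wild-type and 2796 in mutant embryos (ratio 1.14, interval 1.11 to 1.18). Its partner *Psmg2* had a ratio of 0.994, so the pair did not move together. *Psmg4* was lowest, with 736 and 723 (ratio 0.982, interval 0.925 to 1.04), and *Psmg3* had a ratio of 1.01. Among the 3 base chaperones, *Psmd5* had 3598 and 3252 normalized counts (ratio 0.904, interval 0.879 to 0.929), *Psmd10* had a ratio of 1.06, and *Psmd9* had 1670 and 1853 (ratio 1.11, interval 1.07 to 1.15). Their median log2 ratio of 0.082 was −0.0020 with the GC trend removed. *Psmd9* overlaps *Hpd* on the opposite strand.

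*Psmc3ip* met the rule by its symbol and is no proteasome gene, since it encodes a meiotic recombination factor. It had 604 and 569 normalized counts (ratio 0.942, interval 0.881 to 1.01).

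Base composition moved with the ratios across the family. Spearman's rho of the log2 ratio with transcript GC content was −0.50 across the 31 constitutive 26S genes, −0.38 across the 45 tested, and −0.39 across 12306 genes. These are correlations across genes from the same 6 libraries, and genes are not independent replicates. With the trend removed, 7 of the 45 genes changed sign: *Psma1*, *Psma7*, *Psmc4*, *Psmd10*, *Psmd14*, *Psme4* and *Psmg4*. The part of base composition in the ratios was not tested. The 6 genes whose promoters hold the motif above had a median log2 ratio of 0.077, with ratios from 0.825 for *Psmb5* to 1.201 for *Psmc6*, and the 32 tested genes whose promoters lack it had one of 0.0084, so both sets held genes above and below 1.

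Other genes of the pathway were taken from a list of 32 symbols, of which 28 were in the table and 27 were tested. Of these, 2 were higher and 2 were lower past the threshold, where 9.22% and 13.1% of all genes tested were, and the median log2 ratio was −0.046. The list holds the constitutive 26S subunits whose symbols do not begin with *Psm*, and both were past it. *Sem1*, a small lid subunit listed under its older symbol *Shfm1*, had 4088 and 5831 normalized counts (ratio 1.43, interval 1.39 to 1.46). *Adrm1*, a ubiquitin receptor of the base, had 9750 and 7747 (ratio 0.795, interval 0.781 to 0.808). With the GC trend removed their log2 ratios were 0.44 and −0.21, and *Adrm1* then lay inside the threshold. *Zfand5* then lay past it, at −0.37, so the counts of the list stayed at 2 higher and 2 lower.

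The factors that make and steer the proteasome varied in direction. *Pomp*, which helps the beta ring to mature, had 5001 and 4826 normalized counts (ratio 0.965, interval 0.943 to 0.987). *Nfe2l1* had 8548 and 7484 (ratio 0.876, interval 0.860 to 0.891), and its log2 ratio of −0.192 was −0.092 with the GC trend removed. *Ngly1*, which encodes the glycanase that processes the product of *Nfe2l1*, had 409 and 581 (ratio 1.42, interval 1.32 to 1.53) and was past the threshold. *Akirin2*, whose product brings proteasomes into the nucleus, was past it in the other direction, with 3993 and 2983 (ratio 0.747, interval 0.727 to 0.768). *Usp14*, for a deubiquitinase bound to the cap, had 6364 and 6487 (ratio 1.02, interval 0.999 to 1.04).

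Ubiquitin-binding *Ubqln4* lay just inside the threshold with a ratio of 0.801, as did *Nfe2l2* at 0.820. With the GC trend removed, the log2 ratio of *Ubqln4* went from −0.321 to −0.196 and that of *Nfe2l2* from −0.286 to −0.308. *Ddi1* was under the floor of 3 counts per genotype.

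**Figure D5:**
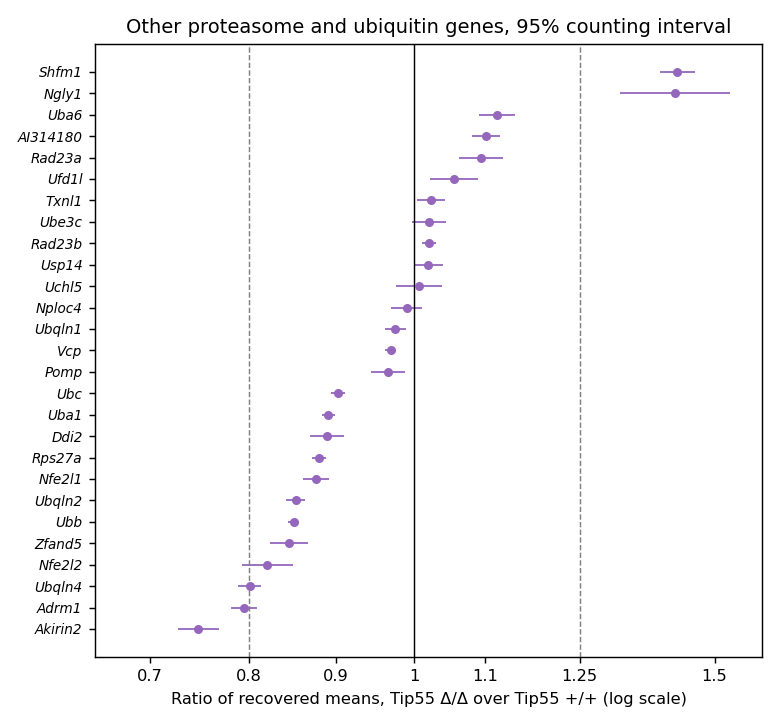
Ratio of the recovered means, *Tip55*Δ/Δ over *Tip55*+/+ (x axis, log scale), for the 27 other proteasome and ubiquitin genes tested, in order of the ratio, with bars for the 95% counting interval. *Shfm1* (*Sem1*) and *Ngly1* lie past the upper dashed line, and *Adrm1* and *Akirin2* past the lower one, of which *Adrm1* lies inside it, and *Zfand5* past it, with the GC trend removed.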

How the data were processed

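BGI made and sequenced the libraries (BGI-seq) from mRNA of whole E8.5 embryos. Per the labels the libraries are not strand specific. Per the submitters' processing notes the build was mm10 and the quantifier RSEM. The authors compared the genotypes with EBSeq, and the deposited table has 5 columns: the gene symbol, the posterior probabilities of equal and of differential expression, and 2 linear fold ratios of knockout over wildtype, a posterior and a real one. The posterior probabilities were neither used nor printed. No count per library is in this table, so depth per library is unknown and no replicate spread, leave-one-out or test across embryos could be computed.

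The 2 ratios add different constants to the same pair of normalized means, 0.01 in the real ratio and 0.514117 in the posterior one, the latter estimated from 296 genes at 0 in knockout and 259 at 0 in wildtype. Both means were solved from the pair, except for 8 genes with a rounding error over 5%. The ratio of the recovered means is thus the deposited real ratio up to its constant. A gene was tested if its mean reached 100 normalized counts, against a threshold of 25% higher or 20% lower. GC content was that of the longest GENCODE vM21 transcript, for 99.4% of the genes tested, and its trend was a lowess curve with a span of 0.3. Overlaps and shared 50-base words came from the same annotation. RefSeq promoters were matched by symbol, and *Psma8*, *Psmb1*, *Psmb2*, *Psmb7*, *Psmc3*, *Psmd3*, *Psmd7* and *Psmg2* had no entry. RSEM assigns shared reads by estimation, so genes with near-identical copies are uncertain. Of the 50 genes, 24 overlap another gene.

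Python 3.11.15, pandas 2.3.3, scipy 1.17.1 and statsmodels 0.14.6 were used, and the recovery was tested on simulated data. Members, classes and gene lists were chosen with earlier results of these data known. Described in full are the highest and lowest gene of each class, genes past the threshold, the 3 catalytic pairs and, from the pathway and interferon lists, those past it with *Adrm1*, *Sem1*, *Pomp*, *Nfe2l1* and *Usp14*. Other genes named from these lists were chosen after their values were seen. Of the pathway list, 1 gene is not reported here and was left out of its counts. Alternatives were thresholds of 1.1 and 1.5, a minimum mean of 10 or none, centring, GC trend removal, the posterior constant added to both means, and leaving out *Psmc3ip*. The level range background, the median transcript length, GC trend removal for the gene lists and leaving out genes that share over 10% of their words were added after seeing the data.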

Additional observations from a re-analysis of the deposited data

How the results depend on the processing

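No paired analysis was possible because the table holds 1 comparison per gene and no value of a single library, and for the same reason no library could be left out. The count of proteasome genes past the threshold followed the threshold and the filter, as their construction implies. At 1.5-fold, 0 genes were higher, and at 1.1-fold 7 were higher (*Psma2*, *Psma3*, *Psmb2*, *Psmb7*, *Psmc6*, *Psmd9*, *Psmg1*) and 5 were lower (*Psmb4*, *Psmb5*, *Psmb10*, *Psmd3*, *Psmd5*). With a minimum mean of 10, 4 genes were higher, and with no minimum 6 were, the added ones being *Psma8*, *Psmb8*, *Psmb9*, *Psmb11* and *Psme2b*. Over all genes, the share that was higher was 2.54% at 1.5-fold, 25.1% at 1.1-fold, 15.6% with a minimum of 10, 22.9% with none and 1.93% in the level range of the 26S genes. The share that was lower was 3.83% at 1.5-fold, 31.9% at 1.1-fold and 8.67% with the GC trend removed.

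Class medians on the log2 scale stayed near 0 but some crossed it. With the GC trend removed they were 0.025 for the base ATPases, −0.035 for the lid, −0.0020 for the base chaperones and −0.52 for the inducible core. Centring put the other base genes at 0.039. Without genes that share bases, the other base genes were at −0.023 and the beta ring at 0.068. The inducible core rests on *Psmb10* alone, and with a minimum of 10 or none its median reversed to 0.37, since the genes added were higher. Of the 45 log2 ratios, 31 left their counting interval and 7 changed sign with the GC trend removed, 5 and 4 did so on centring, and 0 changed sign with the constant added. The cause was not tested. *Psmb2* and *Psmb10* were the genes past the threshold under centring, GC trend removal, the added constant, and without *Psmc3ip* or the genes that share bases. Depth limits what can be said of *Psmb8*, *Psmb9*, *Psmb11*, *Psma8* and *Psme2b*, and 1 value per genotype limits all.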
